A study of Mus musculus with 6 samples.

Results

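The Plcd4 locus of mouse chromosome 1 was described here through the distal regions that interacted with promoters in mouse embryonic stem cells (mESCs). Distal regions are the restriction fragments found ligated to a captured promoter fragment. Members were selected on the HiCap lists alone, as the distal regions that start at positions 74250000 to 75050000 of chromosome 1 in the mm9 build and belong to an interaction, with the same promoter fragment and the same distal region, in the lists of both HiCap replicates. The rule left 285 of the 71955 distal regions called in this way across the genome, and they took part in 395 of 94896 called interactions. HiCap joins Hi-C, in which crosslinked chromatin is cut and the ends of neighbouring fragments are ligated, to sequence capture of promoter fragments. The study holds 2 HiCap, 2 Hi-C and 2 CaptureC samples of untreated mESCs of the line R1, and the enzyme was MboI, which cuts at GATC. The CaptureC samples were not analysed here, and both Hi-C replicates stand pooled in a single list. R1 is 1 line grown without differentiation, so no group differed in genotype, treatment or time. The lists give positions only, with no read numbers, so the depth behind each interaction is unknown. Cell identity could not be checked against marker genes, because the lists used here hold no expression values.

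Enhancers are stretches of DNA that bind transcription factors and raise transcription from promoters that can lie far away along the chromosome, and ligation captures their contact when the chromatin between them folds. A ligation product shows that the fragments were close in some cells, and not that a distal region acts on the promoter. The locus is dense in genes with unrelated roles. Plcd4 encodes a phospholipase C that cleaves a membrane phosphoinositide into second messengers, and Cyp27a1 a mitochondrial enzyme of bile acid synthesis. Bcs1l is a chaperone for complex III of the respiratory chain, Vil1 the actin-bundling protein of microvilli, and Arpc2 a subunit of the actin-nucleating Arp2/3 complex. Wnt6, Wnt10a and Ihh encode secreted ligands of development. Rqcd1 belongs to the CCR4-NOT complex that shortens mRNA tails, and Usp37 is a deubiquitinase.

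The captured fragment named for Plcd4 spans chr1:74588808-74590163 and holds the annotated start of the gene on the plus strand. It lies inside the annotated body of Usp37, which runs the other way and starts at position 74590860, outside the fragment. No list names a fragment for Usp37, so contacts of the fragment cannot be assigned between the neighbouring start sites. The fragment named for Bcs1l likewise holds annotated starts of both Bcs1l and Zfp142, that of Aamp those of Aamp and Pnkd, and the Rnf25 fragment at the gene's start those of Rnf25 and Stk36. The 250 bases upstream of the Plcd4 start are shown because this fragment had the most called distal regions of the locus. They were taken from RefSeq (GRCm38.p6) and found unchanged on the plus strand of mm9.

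Plcd4 upstream, mm9 chr1:74589213-74589462: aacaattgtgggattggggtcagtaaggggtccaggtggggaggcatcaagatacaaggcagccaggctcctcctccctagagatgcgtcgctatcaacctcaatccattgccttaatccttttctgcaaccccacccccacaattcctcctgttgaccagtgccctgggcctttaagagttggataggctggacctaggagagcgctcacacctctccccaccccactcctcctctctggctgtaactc

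Stretches of 150 bases follow from distal regions that several promoters shared, which were a minority of the regions. They come from the plus strand of mm9, avoid annotated exons, and are in lower case except for matches to a searched motif. The capitals mark GGGNGTGGC, the letters of Klf factors, in the region behind Ctdsp1, and TCAAGGTCA, the letters of Esrrb, in both regions of Zfp142, each read on either strand. Of the 4 regions with the most promoters, the one inside Tmbim1 at chr1:74345353-74345999 is not shown, since no stretch of it was free of exons.

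Past the end of Tmbim1, mm9 chr1:74334671-74334820: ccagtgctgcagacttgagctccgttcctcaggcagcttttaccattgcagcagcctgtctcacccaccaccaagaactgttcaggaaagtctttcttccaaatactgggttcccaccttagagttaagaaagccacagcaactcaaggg
Past the end of Slc11a1, mm9 chr1:74433163-74433312: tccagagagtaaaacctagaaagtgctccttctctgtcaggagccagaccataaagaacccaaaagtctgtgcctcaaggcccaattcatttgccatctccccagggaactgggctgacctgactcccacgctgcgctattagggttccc
Past the end of Ctdsp1, mm9 chr1:74443980-74444129: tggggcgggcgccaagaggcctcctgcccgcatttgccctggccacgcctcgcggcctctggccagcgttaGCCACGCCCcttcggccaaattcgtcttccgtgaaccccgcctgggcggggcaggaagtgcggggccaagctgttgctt
Zfp142 intron, first, mm9 chr1:74625429-74625578: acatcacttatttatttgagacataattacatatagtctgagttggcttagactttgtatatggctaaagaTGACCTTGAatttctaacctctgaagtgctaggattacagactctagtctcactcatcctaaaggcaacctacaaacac
Zfp142 intron, second, mm9 chr1:74628649-74628798: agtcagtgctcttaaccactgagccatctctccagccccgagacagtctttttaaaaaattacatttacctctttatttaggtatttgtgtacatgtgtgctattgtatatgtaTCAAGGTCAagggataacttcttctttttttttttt
Gm16582 intron, mm9 chr1:74904969-74905118: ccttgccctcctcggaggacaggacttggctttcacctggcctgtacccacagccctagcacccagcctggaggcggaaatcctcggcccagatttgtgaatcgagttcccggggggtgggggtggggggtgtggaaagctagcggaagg

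The list of replicate 1 held 1731 interactions with a distal region in the window, from 62 promoter fragments. The list of replicate 2 held 1340, from 116 promoter fragments, of which 54 had their interaction over 1 Mb away. No interaction of replicate 1 in the window spanned that distance, and 66 of replicate 2 did. The pairs in both lists were thus 22.8% of those of replicate 1 and 29.5% of those of replicate 2. Over the genome the same shares were 19.0% and 17.1%. These values chose the members and are given as a description. The share of replicate 1 pairs found again in replicate 2 was 39.2% at 1 to 5 kb, 38.9% at 5 to 10 kb, 27.0% at 10 to 25 kb, 17.2% at 25 to 100 kb and 9.86% at 100 to 500 kb. It thus fell with distance, as it did over the genome, where it went from 31.6% in the nearest of these bands to 7.69% in the farthest. In a walk along the genome in steps of 800 kb, 29 of the 2177 steps with a called interaction held at least 395, and the median step held 13.0. Steps were counted from the start of each chromosome, so the window, placed on this locus, was not itself a step.

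The 395 called interactions came from 36 promoter fragments of 28 genes. Interactions of Plcd4 made up 25.1% of them, with 99 distal regions. Across the genome, 3 of 15876 promoter fragments with a call had at least 99 regions, and the median was 3.00. The longer Bcs1l fragment had 52, the Vil1 fragment inside the gene 25 and the one at its annotated beginning 20. Rqcd1 had 20 regions, and Tmbim1, which encodes a membrane protein of the BAX-inhibitor family, had 20 at the most connected of its 4 fragments. Wnt6 had 19 regions, Gpbar1, the bile acid receptor, 15, and Arpc2 12. Rnf25, a ubiquitin ligase, had 10 at its longest fragment. The median promoter fragment of the locus had 6.00, and 10 of the 36 had 1 region each.

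**Figure D1:**
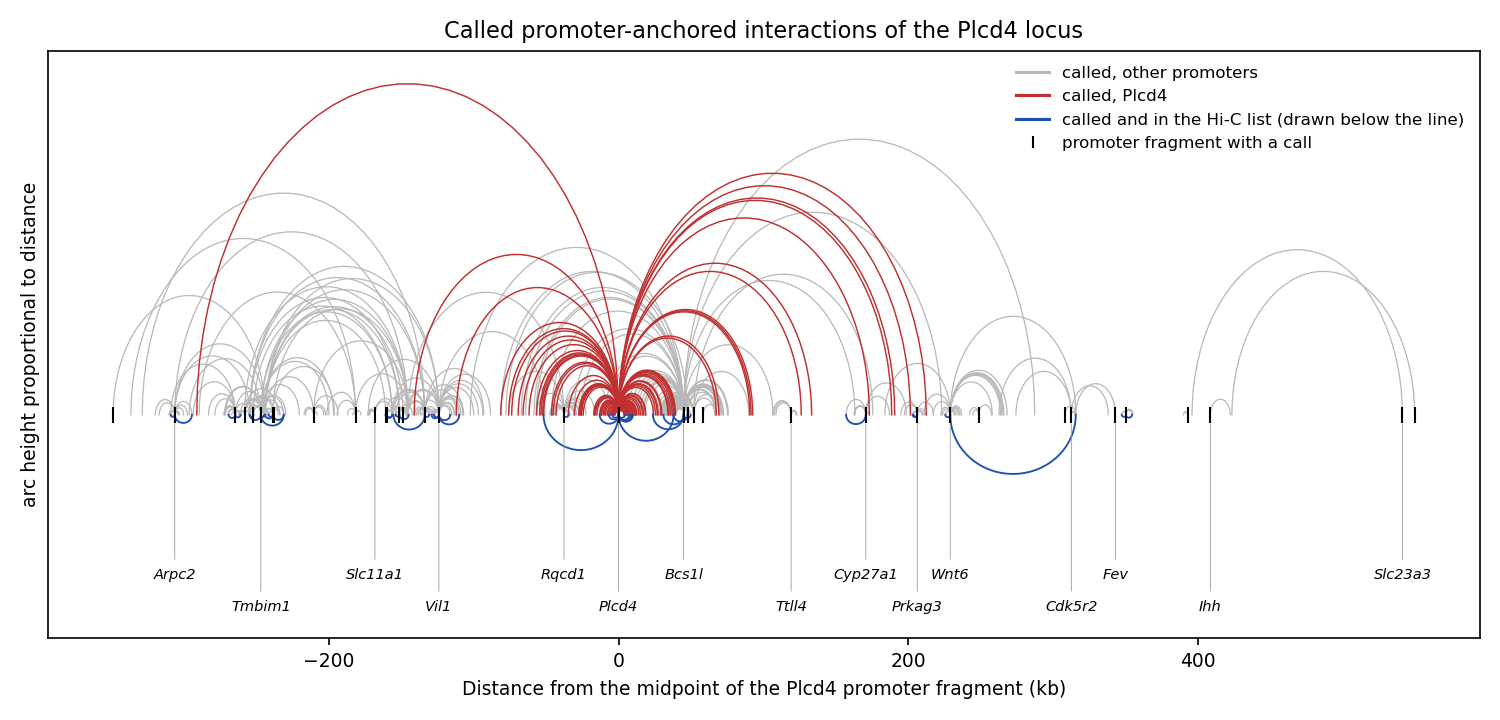
Called interactions of the Plcd4 locus. The horizontal axis gives the distance in kb from the midpoint of the Plcd4 promoter fragment, each arc joins a promoter fragment (tick) to a distal region, red arcs are the 99 of Plcd4, grey arcs the other 296, and blue arcs below the line repeat the 44 that the Hi-C list also holds. Red arcs fill both sides of Plcd4, grey arcs between Tmbim1 and Vil1 meet at a few points, and no arc runs from Fev or left of it to Ihh or beyond.

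Numbers per list followed the same order only in part. The Plcd4 fragment had 283 regions of the window in replicate 1, 170 in replicate 2 and 19 in Hi-C. The longer Bcs1l fragment had 159, 129 and 5, and Wnt6 66, 59 and 6. Rnf25 had 81 and 56 in the replicates and 5 in Hi-C at its longest fragment, and 10 in both replicates where Wnt6 had 19. The share of replicate 1 regions that were also in replicate 2 was 35.0% for Plcd4, 32.7% for Bcs1l, 28.8% for Wnt6, 20% for Rqcd1 and 12.3% for Rnf25. Among fragments with few regions, Mir26b, a microRNA gene inside Ctdsp1, had 4 called from 7 in replicate 1 and 4 in replicate 2, while Ccdc108 had 1 from 35 and 14.

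**Figure D2:**
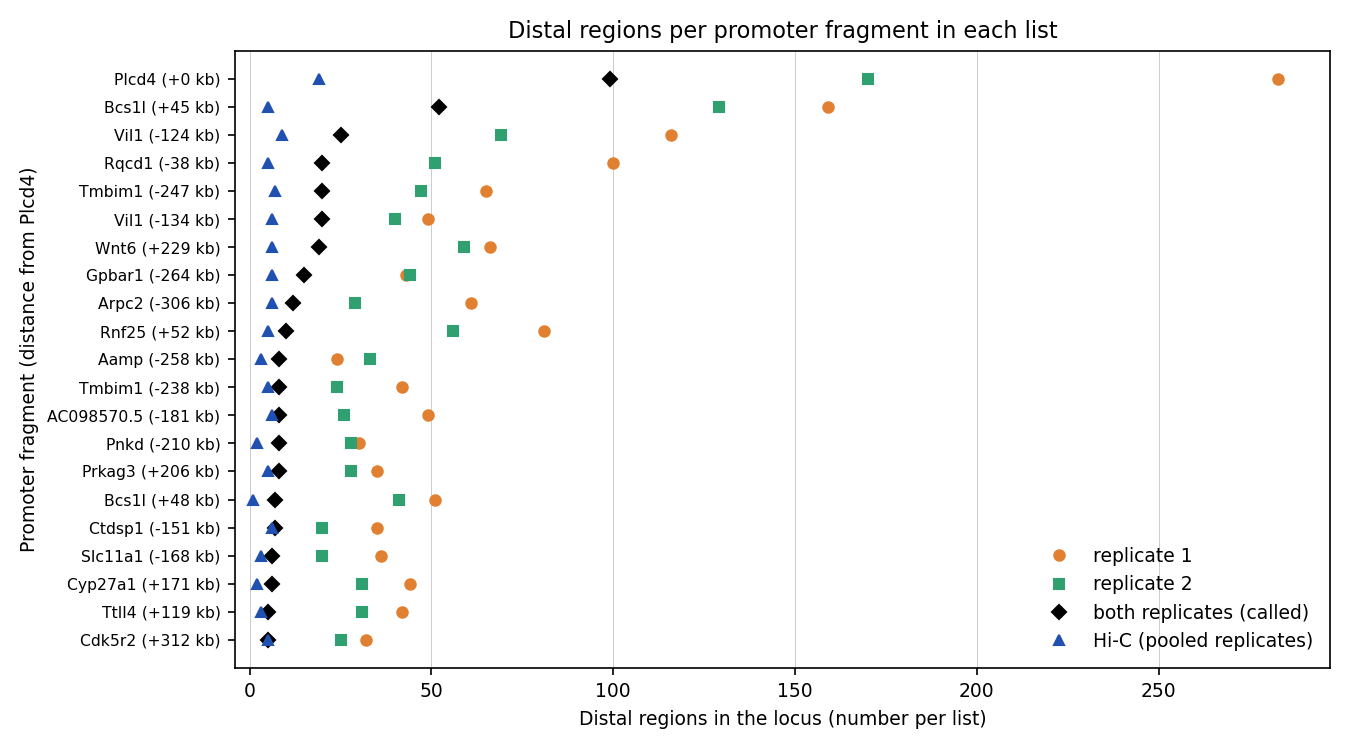
Distal regions in the locus for the 21 promoter fragments with 5 or more called. The horizontal axis counts regions in replicate 1, in replicate 2, in both and in the pooled Hi-C list, and each row gives the distance of the fragment from Plcd4 in kb. Plcd4 leads in every list, and all fragments lie lower in Hi-C than in either HiCap replicate.

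The distal regions of Plcd4 lay on both sides of its fragment, 48 upstream and 51 downstream. Upstream, 31 were in the body of Usp37 alone and 14 in the part of it that Rqcd1 overlaps, so 45 of 99 lay inside Usp37. Downstream, 26 were in Plcd4 itself, 1 where Plcd4 and Zfp142 overlap, 12 in Zfp142, a zinc finger gene, and 5 in Stk36, a kinase of the hedgehog pathway. The other members were farther away, in Ttll4, Cyp27a1, Prkag3, Vil1 and Arpc2 or between genes. Distances ran from 2.29 to 291 kb with a median of 24.1 kb, and 73 regions were within 50 kb. The 99 regions formed 70 runs of adjoining fragments and covered 55458 bp. The longest run by number of regions held 5 and covered 2036 bp at 4.44 to 5.93 kb downstream.

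A second Plcd4 fragment of 100 bp near the end of the gene had no called region. It had 8 regions in replicate 1 and 2 in replicate 2, none of them shared, and 5 in Hi-C. Every called region of Plcd4 therefore belonged to the fragment at the gene's annotated start.

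Among the other genes of the locus, sorted by what they encode, all 3 signalling ligands had a call, Wnt6 with 19 regions, Wnt10a with 3 and Ihh with 1. Of 7 names for receptors and transporters, some of them older synonyms, 5 were in a list and 4 had a call. These were Gpbar1 with 15 regions, Slc11a1, a metal transporter of macrophages, with 8, and Cxcr1 and Slc23a3 with 1 each. Both lipid enzymes, Plcd4 and Cyp27a1, had calls, as did all 3 cytoskeletal genes, Vil1 with 36 regions over its fragments, Arpc2 with 12 and Ttll4 with 5. Of the 4 kinases, phosphatases and their subunits, Prkag3, a subunit of AMP-activated kinase, had 8, Ctdsp1, a phosphatase of RNA polymerase II, 7 and Cdk5r2, an activator of Cdk5, 5. The ubiquitin genes had a call for Rnf25, with 11 regions over its fragments, and none for Usp37. Bcs1l had 56 regions over its fragments, while the repair gene Nhej1, whose captured fragment lies outside the window, had none here. Of the 3 genes of transcription and RNA, Rqcd1 had 20 and Fev, a factor of serotonin neurons, 1. All 5 of the remaining named genes had calls, Tmbim1 with 21 regions, Aamp and Pnkd with 8 each, Cryba2, a lens crystallin, with 3, and Ccdc108 with 1.

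Genes with a captured fragment in the window and no called region were Zfp142, Stk36, Mir375 and AC139023.4. Zfp142 had no region of the window in any list at its own fragment. The Stk36 fragments had 8 regions in replicate 1, 1 in replicate 2 and 1 in Hi-C. Mir375, a microRNA of islet cells, had 1 region in replicate 1. The fragment named AC139023.4, which holds the annotated start of Gm15841, had 9 in replicate 1, 1 in replicate 2 and 5 in Hi-C, and none of its Hi-C regions was in either replicate. In all, 52 promoter fragments of the window were named in a list and 33 had a call there. Of the 19 without, 3 stand only in the authors' combined list. They belong to Arpc2, Slc11a1 and Ctdsp1, which had calls at other fragments. Calls from 3 further fragments, of Cxcr1, Slc23a3 and 1810031K17Rik, reached into the window from outside.

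Of the 285 regions, 227 were called with 1 promoter fragment, 42 with 2, 7 with 3, 5 with 4, and 1 each with 8, 10, 12 and 13. Thus 58 regions, 20.4% (exact binomial 95% interval 15.8 to 25.5%), were shared by 2 or more fragments, against 15.4% over all called regions. In 7 of the 58 the fragments belonged to 1 gene, and 51 joined promoters of different genes. Intervals here cover counting error only, and regions of 1 promoter are not independent. The 4 regions with 8 or more promoters took part in 43 interactions, 10.9% of all, with 18 of the 36 promoter fragments. Over the genome 580 regions, 0.806%, had 8 or more promoters, and the most connected had 36.

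**Figure D3:**
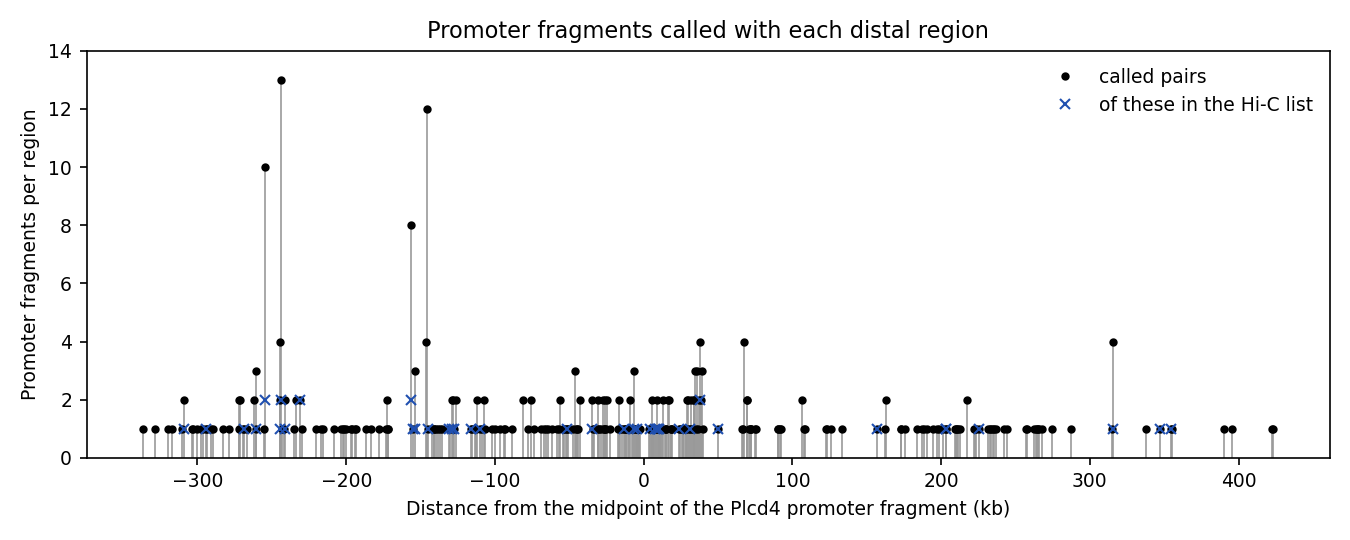
Promoter fragments per distal region. The horizontal axis gives the distance from the Plcd4 promoter fragment in kb, black points count the fragments called with each of the 285 regions, and blue crosses count those that the Hi-C list also holds. The 4 tallest points, 8 to 13, lie 145 to 254 kb to the left of Plcd4, beyond Vil1, and no region near Plcd4 exceeds 4.

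The region with 13 promoter fragments, chr1:74345353-74345999, is 647 bp long and lies in Tmbim1, whose body sits inside that of Pnkd. It was called with Cxcr1, Arpc2, Gpbar1, Aamp, 3 fragments of Tmbim1, Pnkd, Slc11a1, Ctdsp1, Mir26b and both called fragments of Vil1, at 3.00 to 119.9 kb. Replicate 1 listed it with 19 fragments, replicate 2 with 18 and Hi-C with 2, both of Tmbim1. The region behind Ctdsp1, chr1:74443702-74444596, was called with 12 fragments of 10 genes, from Arpc2 at 161 kb to Mir26b at 3.35 kb and Rqcd1 at 108 kb on the other side. It was listed with 19 fragments in replicate 1 and 16 in replicate 2 and with none in Hi-C. The region at the end of Tmbim1, chr1:74334621-74335440, had 10 fragments, 23 in replicate 1, 13 in replicate 2 and 2 in Hi-C. The region at the end of Slc11a1, chr1:74432561-74433914, had 8, from 20 in replicate 1 and 12 in replicate 2, and 3 in Hi-C.

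These 4 regions shared most of their promoters. The 2 fragments of Vil1 and the Tmbim1 fragment with 20 regions were called with all 4. Arpc2 and Aamp were called with 3 of them and with the region at Slc11a1 in 1 replicate only. Annotated transcripts ended in 3 of the 4, against 18 of all 285 regions, and such ends were not counted over the genome. Their G+C content ranged from 50.4 to 60.0%, with a mean of 54.7% ± 3.99 (SD, n = 4), against 46.1% ± 6.12 (SD, n = 285) over the locus. Regions with 8 or more promoters over the genome averaged 52.0%, against 46.6% of all called regions. Within the locus, regions with 2 or more promoters averaged 45.8% and those with 1 promoter 46.2%. The 4 regions were also longer, with a mean of 929 bp against 616 bp over the locus. The part of base composition or length in the sharing was not tested.

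**Figure D4:**
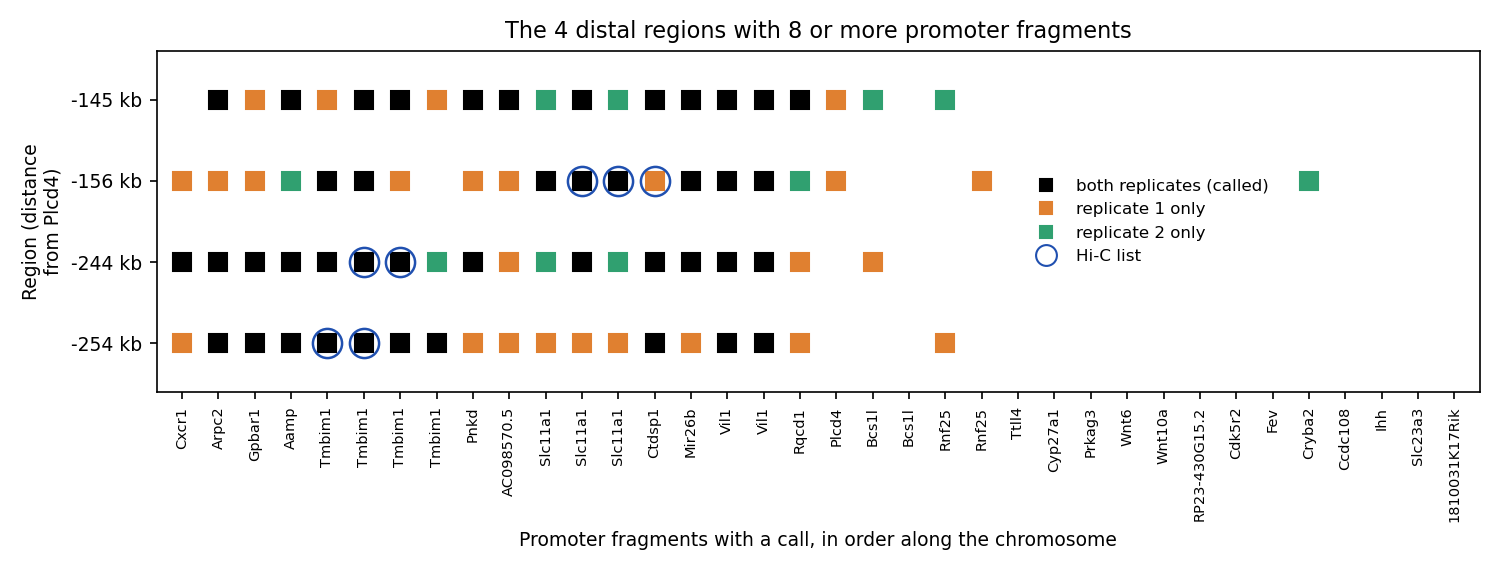
The 4 regions with 8 or more promoters against the 36 promoter fragments with a call. Rows give the distance of the region from Plcd4, columns follow the chromosome, squares show whether the pair was in both replicates (black), in replicate 1 (orange) or in replicate 2 (green), and circles mark the Hi-C list. Squares fill the columns from Cxcr1 to Rqcd1, nearly stop from Plcd4 on, and the 7 circles, in the lower 3 rows, are all at promoters of Tmbim1, Slc11a1 and Ctdsp1.

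Neither Plcd4 nor Bcs1l was called with any of these 4 regions. Plcd4 was listed in replicate 1 with the region at Slc11a1, at 156 kb, and with the region behind Ctdsp1, at 145 kb, and in replicate 2 with neither. The longer Bcs1l fragment was listed with the region behind Ctdsp1 in replicate 2 and with the one inside Tmbim1 in replicate 1. Of the 36 fragments, 17 lie on the side of Vil1 and Tmbim1 and 19 from Rqcd1 on. Interactions of the former involved 90 regions and those of the latter 197, and 2 regions were shared between the sides. One was the region behind Ctdsp1, through Rqcd1, and the other was a region inside Vil1 that the Vil1 fragment at the gene's beginning and Plcd4, at 112 kb, had in common.

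On the Plcd4 side, sharing was mostly in pairs. Plcd4 and the longer Bcs1l fragment had 19 regions in common, 19.2% of those of Plcd4 and 36.5% of those of Bcs1l. Rqcd1 and Plcd4 had 9 in common, 45.0% of those of Rqcd1 and 9.09% of those of Plcd4. Bcs1l and Rnf25 shared 6, which were 60.0% of those of Rnf25. In all 29 of the 99 regions of Plcd4 were shared with another promoter fragment. Regions called with Plcd4 had at most 4 promoter fragments, and 2 of them had 4. The first, chr1:74626862-74628084 in an intron of Zfp142, was called with Plcd4 at 38.0 kb, with both Bcs1l fragments at 6.93 and 9.63 kb and with Rnf25 at 13.8 kb. Hi-C listed it with Plcd4 and with the shorter Bcs1l fragment. The second, chr1:74656691-74657208 in an intron of Stk36, was called with Plcd4 at 67.5 kb, with both Bcs1l fragments at 22.5 and 19.8 kb and with the Rnf25 fragment at the gene's start at 8.99 kb, and was not in Hi-C. The 2 regions of Zfp142 with an Esrrb match, whose sequences are given above, were each called with Plcd4, Bcs1l and Rnf25, and Hi-C held none of these called interactions.

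Vil1 shared 9 regions between its 2 fragments, and Tmbim1 7 between the fragments with 20 and with 8.

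The Wnt6 promoter had 19 regions at a median of 11.7 kb, all but 2 unshared. The farthest, chr1:74904883-74905205 in an intron of Gm16582, lay 86.6 kb away and was also called with Cdk5r2 at 3.09 kb, with Fev at 27.4 kb and with the fragment RP23-430G15.2, which holds the annotated start of Gm16582, at 7.57 kb. The interaction with Wnt6 was in Hi-C as well and was the longest called interaction of the locus found there. The interaction passed over Wnt10a, whose 3 called regions were at most 8.69 kb away and none shared. Wnt6, Prkag3, Cdk5r2, Fev and RP23-430G15.2 were linked with each other through shared regions and with no other promoter. Their 30 regions had no promoter fragment in common with a larger group of 25 fragments and 245 regions. The promoters of that group ran from Cxcr1 to Cyp27a1. In position the groups overlapped. Regions of the larger group reached chr1:74876532-74876960, called with Bcs1l, and those of the smaller began at chr1:74772855-74773670 inside Cyp27a1.

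No called interaction with a distal region in the window spanned the stretch chr1:74944971-74979284, nor 2 shorter stretches of 3278 and 2570 bp beside it. The stretch is 34314 bp long and lies mostly in Ccdc108. Single lists did span it. Replicate 1 held 59 interactions under 500 kb across it, replicate 2 held 115 and Hi-C 3. These counts were not limited to distal regions in the window, so they cover a wider set than the called interactions. Beyond it Ihh, a ligand of the hedgehog family, had 1 called region at 13.7 kb. It had 16 regions in replicate 1, 4 in replicate 2 and 7 in Hi-C, of which 5 were in neither replicate.

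Distances of the 395 interactions, between midpoints, ran from 1.92 to 291 kb with quartiles of 6.39, 14 and 34.6 kb. The median over all called interactions was 10.3 kb, and that of chromosome 1 outside the locus was 9.98 kb. Without Plcd4 the median of the locus was 13.0 kb. Of the interactions, 18.5% were at 1 to 5 kb, 20% at 5 to 10 kb, 27.1% at 10 to 25 kb, 25.3% at 25 to 100 kb and 9.11% at 100 to 500 kb, and none was longer. In single lists the medians were 29.0 kb for replicate 1 and 68.4 kb for replicate 2, and in Hi-C 13.0 kb. The requirement of both replicates thus removed more of the long pairs than of the short ones.

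The 5 longest interactions were Plcd4 with a region in an intron of Arpc2 at 291 kb, Bcs1l with a region at 242 kb, Plcd4 with regions at 212 and 201 kb, and Vil1 at 195 kb. They passed over 22, 16, 17, 16 and 18 other promoter fragments in that order. None of the 5 was in Hi-C, and 36 interactions over 100 kb included none that was.

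A promoter was counted as skipped when its fragment, named in any of the lists, lay wholly between the ends of an interaction. This included the 3 fragments that stand only in the combined list, beside called fragments of the same genes. At least 1 promoter was skipped by 222 of the 395, 56.2% (exact binomial 95% interval 51.2 to 61.2%), against 39.9% over all called interactions. At matched distance the locus had 9.59 and 6.01% over all at 1 to 5 kb, 26.6 and 21.6% at 5 to 10 kb, 58.9 and 46.0% at 10 to 25 kb, 95 and 79.1% at 25 to 100 kb and 100 and 96.3% at 100 to 500 kb. The intervals of the locus were 49.0 to 68.3% at 10 to 25 kb and 88.7 to 98.4% at 25 to 100 kb. They cover counting error only, and interactions of 1 promoter are not independent. Plcd4 alone gave 38 of the 100 at 25 to 100 kb. The members were chosen on called interactions, so these shares are a description. With skipped fragments of the interacting gene itself left out, 41.8% skipped a promoter, and with skipped promoters limited to those with a call of their own, 42.3% did. Neither narrower rule was applied to all called interactions, so these shares cannot be set against the 39.9%. The nearest promoter fragment, with or without a call of its own, was the partner in 125 interactions, 31.6%. The same share was not computed over all called interactions.

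By gene, 50 of the 99 interactions of Plcd4 skipped a promoter, 25 of them passing over a fragment of Rqcd1 and 12 over one of Bcs1l, while 13 passed over the second fragment of Plcd4 alone. All 59 of Bcs1l did, and the fragments of Zfp142, Bcs1l and Rnf25 lie close together there. The longer Bcs1l fragment, with 52 of them, itself holds annotated starts of Bcs1l and Zfp142. The separate Zfp142 fragment beside it was still counted as a skipped promoter of another gene. Vil1 skipped a promoter in 29 of 45 interactions and Tmbim1 in 23 of 33. Rqcd1 did so in 3 of 20, Wnt6 in 8 of 19, and Prkag3, Cyp27a1, Ttll4, Wnt10a and Cryba2 in none. The fragments passed over most often were the uncalled one of Zfp142, by 61 interactions, the short second one of Plcd4, by 45, and the uncalled one of Rqcd1, by 37. The start fragment of Plcd4 was passed over by 12.

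**Figure D5:**
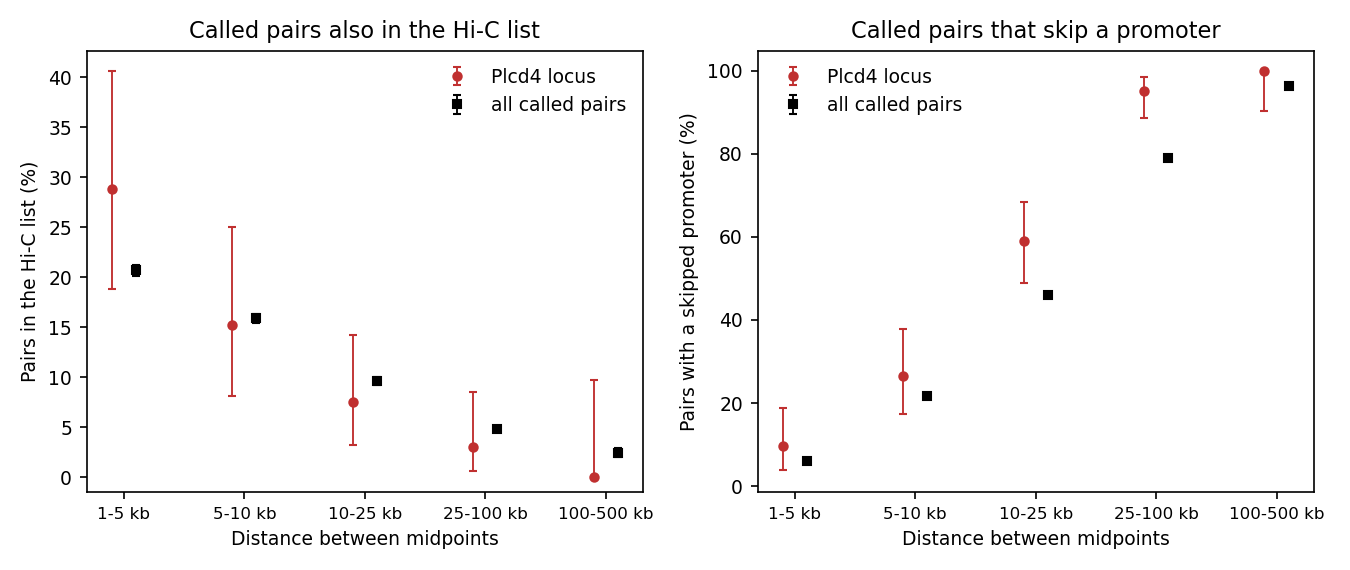
Shares of called interactions by distance. The left panel gives the percentage also in the Hi-C list and the right panel the percentage that skipped a promoter, for the Plcd4 locus (red) and for all called interactions (black), with exact binomial 95% intervals. The Hi-C share of the locus falls from 28.8% to 0 and the share with a skipped promoter rises from 9.59 to 100%.

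Hi-C was not used in the choice of members, and its list held 44 of the 395 called interactions, 11.1% (exact binomial 95% interval 8.21 to 14.7%). Over all called interactions it held 12.5%, a value inside that interval. The share fell with distance. It was 28.8% (18.8 to 40.6%) at 1 to 5 kb and 15.2% (8.10 to 25%) at 5 to 10 kb, against 20.7 and 15.9% over all. It was 7.48% (3.28 to 14.2%) at 10 to 25 kb and 3.00% (0.623 to 8.52%) at 25 to 100 kb, against 9.61 and 4.78%. None of 36 at 100 to 500 kb was listed, which allows a share of up to 8.33% by 3 counts and 9.74% by the exact interval, against 2.46%. All 5 values over the genome lay inside the intervals of the locus. The Hi-C depth is unknown, and with replicates pooled in 1 list the agreement carries no replicate error.

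Interactions in Hi-C had a median distance of 5.18 kb, and those outside it 16.0 kb. Of interactions that skipped no promoter 15.6% were in Hi-C, and of those that skipped at least 1, 7.66%, against 15.0 and 8.63% over all called interactions. These shares were not matched for distance, with which skipping rose and the Hi-C share fell. Shared regions and regions with 1 promoter had like shares, 11.9% and 10.6%, with intervals of 7.43 to 17.8% and 6.89 to 15.3%. The shares for shared and unshared regions over all called interactions were 16.7 and 10.1%.

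Of the 36 promoter fragments, 18 had a called interaction that Hi-C listed. For Plcd4 these were 10 of 99, 10.1% (4.95 to 17.8%), and without Plcd4 34 of 296, 11.5% (8.09 to 15.7%). The 10 regions lay at 4.24 to 51.7 kb, 5 of them inside Plcd4, 4 inside Usp37 or Rqcd1, and 1 the Zfp142 intron region that Bcs1l shared. Of the 19 Hi-C regions of Plcd4, 17 were in replicate 1, 11 in replicate 2 and 1 in neither. Cryba2 had 2 of its 3 calls in Hi-C and Prkag3 2 of 8. Aamp, Pnkd, AC098570.5, Rnf25, Ttll4, Cdk5r2, Mir26b and Wnt10a had none, with 3 to 11 called interactions each.

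Seen from the Hi-C list, 44 of its 185 interactions in the window were in both HiCap replicates, 54 in 1 and 87 in neither. The share in both was 23.8% (17.8 to 30.6%), against 15.8% of all Hi-C interactions. Being in both replicates is also the rule that chose the members, so this share is a description. It was not matched for distance. For Cdk5r2 and AC139023.4, with 5 Hi-C interactions each, none was in a HiCap replicate. At Ttll4, 14 Hi-C interactions came from 5 fragments inside the gene that had 19 interactions in replicate 1 and 1 in replicate 2, and none called. When a match asked only for the same gene and distal regions within 1 kb, 44.1% (39.1 to 49.1%) of the called interactions had a Hi-C partner, against 40.1% over all.

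The 285 regions covered 175572 bp, 21.9% of the window. All ended at MboI sites, and 269 were single MboI fragments. Their lengths ran from 39 to 2704 bp with a median of 524 bp, against 568 bp over all called regions. Introns held 138 regions, exons or parts of them 90, and the space between genes 57. Of the 58 shared regions, 26 touched exons, 24 lay in introns and 8 between genes. Places in the annotation were not counted over all called regions, so these numbers describe the members only. A single region held an annotated start, that of the microRNA gene Mir1928. Mean G+C content was 46.1% over the locus and 46.6% over all called regions, and 46.4% in the whole window.

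Letters of 3 factors were searched on both strands of the 300 bases around each region's midpoint, as a description. A core of 12 letters for CTCF, the insulator protein, was in none of the 285, which allows up to 1.05% by 3 counts and 1.29% by the exact interval, and in 0.598% of all called regions. TCAAGGTCA, for Esrrb, a nuclear receptor of pluripotent cells, was in 4 regions, 1.40%, against 1.05%. GGGNGTGGC, for the Klf family, was also in 4, 1.40%, against 1.86%. Over whole regions the counts were 1, 7 and 8, or 0.351, 2.46 and 2.81%, against 1.42, 2.34 and 4.31% of all called regions. The CTCF match was in an intron of Prkag3, and 2 of the Klf matches were in the regions at Tmbim1 and behind Ctdsp1 with 10 and 12 promoters. Of all regions with 8 or more promoters over the genome, 11.6% held a Klf match, 5.86% a CTCF match and 3.10% an Esrrb match over the whole region. In the 300 bases these shares were 3.62, 1.55 and 1.03%. Such regions averaged 1117 bp, against 696 bp over all called regions, and the part of length or base composition was not tested. No 2 matches overlapped, and a match is not a binding site.

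The members at the edges of the window were chr1:74252626-74253352 and chr1:75012364-75013188. The nearest called regions outside it were chr1:74235868-74236083 and chr1:75060979-75061611. Of the 395 interactions, 375 stood in the combined list that the authors deposited with the same promoter fragment. The other 20 were not there under that fragment, and the list names another fragment for Arpc2, Slc11a1 and Ctdsp1.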

How the data were processed

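The authors mapped read ends separately on mm9 with HiCUP and Bowtie, removed duplicates and pairs under 1 kb apart, and kept interactions with at least 3 read pairs. The deposited values are genomic positions of promoter fragments and distal regions, with no counts and no other measured unit. There are 4 lists: HiCap replicate 1, HiCap replicate 2, their combined calls, and Hi-C with replicates pooled. Settings for Hi-C calls are not given in the sources used here.

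Interactions were compared by exact position with pandas 2.3.3, numpy 2.4.6 and scipy 1.17.1. Distances are between midpoints. Start sites, exons and gene bodies came from GENCODE vM1 on NCBIM37, without pseudogenes. Shares carry exact 95% binomial intervals, which cover counting error only. No test was made, since the members were chosen on both HiCap lists. The code was tested on simulated lists. Members, gene lists and rules were chosen with earlier results of these data known. Named genes were Plcd4, the 20 genes with most called regions, those of the 5 longest interactions, genes without a call, those at the most shared regions, and lists by function. Alternatives were single replicates, the combined list, over 10 kb, merged regions, genes, a window 100 kb wider, and other match and skip rules.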

Additional observations from a re-analysis of the deposited data

How the results depend on the processing

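No paired analysis was possible because the lists hold no value per sample, the members need both HiCap replicates and the Hi-C replicates are pooled. With 1 replicate alone in place of both, the locus had 1340 to 1731 interactions, 767 to 840 distal regions, and 172 to 285 regions of Plcd4. With 1 replicate, Hi-C listed 3.96 to 5.14% of interactions, 45.0 to 55.5% of regions had 2 or more promoters, 68.5 to 79.2% of interactions skipped a promoter, and the median distance was 29.0 to 68.4 kb. With only interactions over 10 kb there were 243 interactions and 183 regions, 4.53% were in Hi-C and 79.8% skipped a promoter. With adjoining regions merged there were 188 regions, 32.4% of them with 2 or more promoters. The looser Hi-C match gave 44.1%, and the other rules for skipped promoters 42.3% (promoters with a call) and 41.8% (other genes). Of 47 alternatives 25 left a count within 1.5 times, a share within its interval, or the median distance within 27.9 kb, the SD of the single-replicate medians. That limit is wider than the median itself, so it says little about stability, and the median was 27.3 kb with only interactions over 10 kb. These included all of the authors' combined list, the wider window and genes in place of fragments. Read numbers are absent from the lists, so the effect of depth was not tested.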
